A study of Mus musculus with 6 samples.

Results

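The transcripts described here belong to 9 genes of the cardiomyocyte plasma membrane (sarcolemma): the L-type calcium channel subunits Cacna1c, Cacnb2 and Cacna2d1, the T-type calcium channel pores Cacna1g and Cacna1h, the sodium channel β4 subunit Scn4b, the sodium-calcium exchanger Slc8a1 and the pacemaker channels Hcn2 and Hcn4. They were selected by gene symbol from a table of 54532 genes, and each symbol matched 1 row. RNA-seq had been run on hearts of 3 Mrps5 fl/fl mice (Ctrl) and 3 Mrps5 fl/fl; MCM mice (cKO). MCM is a tamoxifen-inducible Cre driven by the αMHC promoter, which is active in cardiomyocytes, so that tamoxifen deletes Mrps5, a gene for a mitochondrial ribosomal protein, in those cells. All 6 mice carried the floxed alleles and received tamoxifen at 8 weeks of age (45 mg/kg on each of 5 days), and hearts were taken 12 weeks after injection. The controls lacked the MCM transgene, so loss of Mrps5 and activation of the Cre protein cannot be told apart in this design. The study's methods name ventricular tissue as the source of the RNA, whereas the sample titles give the heart.

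In a working cardiomyocyte the action potential opens L-type channels, whose pore is Cav1.2 (Cacna1c) and whose trafficking and gating depend on a β and an α2δ subunit. The calcium that enters triggers release from the sarcoplasmic reticulum, and Slc8a1 (NCX1) removes calcium in exchange for sodium during relaxation. Sodium channel β subunits such as Scn4b tune the sodium current that starts the action potential. T-type channels and the hyperpolarization-activated HCN channels are best known from pacemaker cells, and both families are also expressed in fetal ventricles and in those of stressed adult hearts.

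Of the 9 genes, 4 were lower in cKO hearts (Cacna1c, Cacna2d1, Cacna1g and Scn4b), 2 were higher (Slc8a1 and Hcn2) and 3 did not pass the test (Cacnb2, Cacna1h and Hcn4). The test was limma's moderated test on log2(FPKM + 1), called at a Benjamini-Hochberg adjusted p under 0.05 over the 12944 genes whose mean reached 0.5 FPKM. FPKM divides a gene's fragment count by its length in kilobases and by a library size, which here was not the plain read total. All 9 genes passed that minimum. Over all genes tested, 33.3% were called, 16.3% as higher and 17.0% as lower in cKO. The 6 called members should be read against that broad change. The groups did not overlap for 7 members, 2 higher and 5 lower, compared with 51.2% of all genes tested (24.8% higher and 26.4% lower). The median log2 fold change was -0.53 over the 9 members and -0.02 over all genes tested. In whole tissue, fewer cells of a type and less RNA per cell cannot be told apart.

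**Figure D1:**
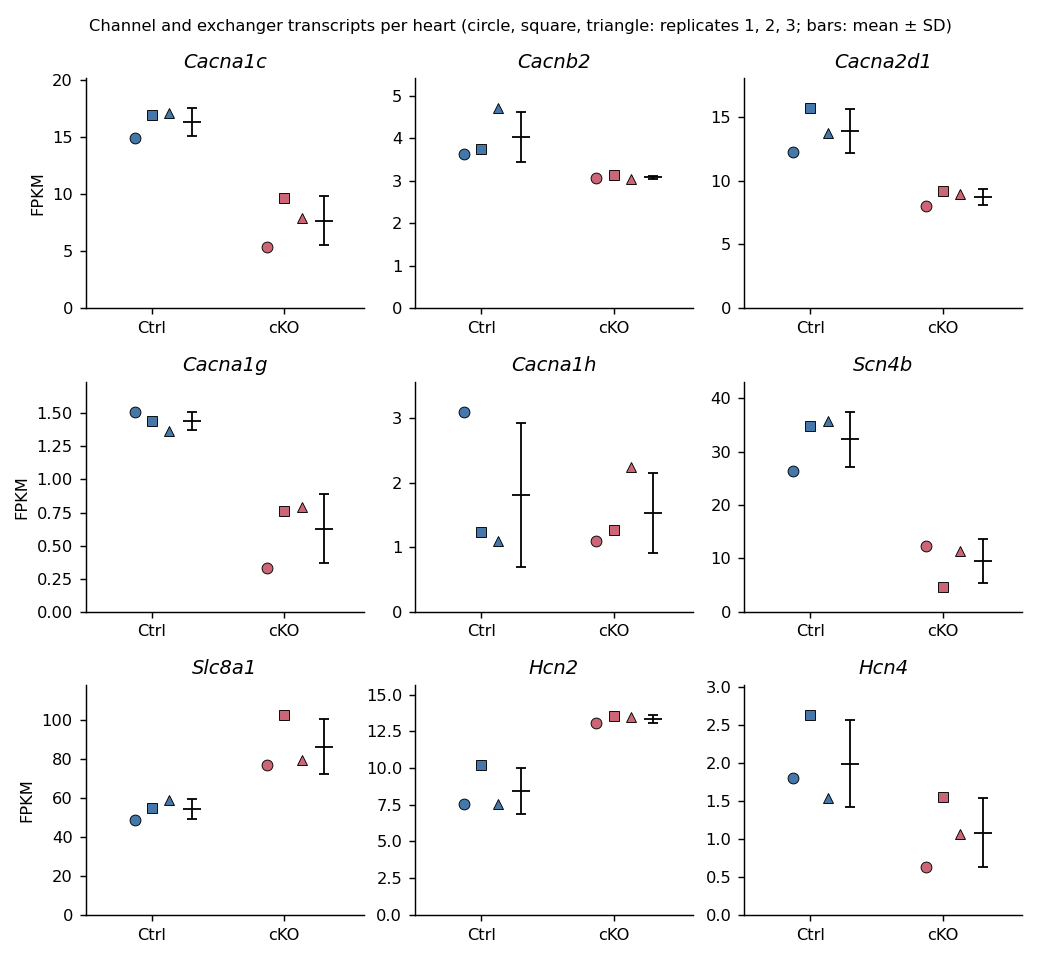
Each panel plots FPKM on a linear axis from 0 for a gene in the 3 Ctrl hearts (blue) and the 3 cKO hearts (red), with the mean ± SD beside the points. The groups separate in 7 panels and overlap for Cacna1h and Hcn4.

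The targeted gene followed the genotype in every library. Mrps5 stood at 5.20, 6.45 and 6.33 FPKM in Ctrl hearts and at 1.12, 1.23 and 1.31 FPKM in cKO hearts (log2 fold change -1.65 ± 0.0944 SE, adjusted p = 0.000202). Gene-level reads numbered 19464289 to 24875499 per Ctrl library and 15989322 to 23749804 per cKO library. Y-linked transcripts were absent from cKO replicate 2, where Xist reached 10.7 FPKM, and were present in the other 5 hearts, so sex was not balanced between the groups. The study states that all its mice were male, which the transcripts of cKO replicate 2 do not match. Atrial marker transcripts summed to 2054, 290 and 128 FPKM in Ctrl replicates 1, 2 and 3 and to 575, 1348 and 1675 FPKM in the cKO replicates, and 0 of the 5 atrial markers passed the test with limma, with voom or at an unadjusted p under 0.05. Much of the sum was Nppa, a natriuretic peptide gene that stressed ventricles also express, with 1127 FPKM in cKO replicate 2. Without it the other 4 markers summed to 992, 145 and 25.2 FPKM in Ctrl and to 106, 221 and 737 FPKM in cKO, with Ctrl replicate 1 and cKO replicate 3 still the highest of their groups. Cardiomyocyte markers summed to 16372 to 19603 FPKM in Ctrl and 10049 to 16668 FPKM in cKO, with 3 of 10 called lower. Of the 4 ventricular markers, 2 were called lower (sums 5984 to 7444 against 3548 to 5096 FPKM). Endothelial markers were lower (4 of 5; 114 to 132 against 74.6 to 87.2 FPKM). Smooth muscle and pericyte markers summed to 146 to 166 against 94.9 to 122 FPKM (1 higher and 1 lower of 5 tested), fibroblast markers to 223 to 252 against 208 to 217 FPKM (2 higher and 1 lower of 7), and macrophage markers to 93.4 to 130 against 82.5 to 117 FPKM (1 lower of 5). Neuron and glia markers summed to 2.16 to 2.72 FPKM in Ctrl and 8.03 to 15.8 FPKM in cKO, a rise carried by the tubulin gene Tubb3. The part of these differences in the channel results was not tested.

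The 250 bases before the start annotated in RefSeq (GRCm38.p6) are shown for the 4 called members that have a single promoter entry there. Of these, Scn4b and Cacna2d1 fell and Hcn2 and Slc8a1 rose. They let the sequence of falling and rising genes be compared. Capitals mark a GC box (GGGCGG or its reverse complement CCGCCC) or a CCAAT box (or ATTGG), on either strand and with overlapping matches counted. Each is written 5′ to 3′ on the strand of its gene. The windows lie at chr9:45138374-45138623 (plus strand) for Scn4b, chr5:15934441-15934690 (plus) for Cacna2d1, chr10:79716384-79716633 (plus) for Hcn2 and chr17:81738388-81738637 (minus) for Slc8a1. For 2 of them the start differs from that of the gene model behind the FPKM values. That model of Scn4b begins at 45138395, so most of the Scn4b window lies inside it. For Slc8a1 the model begins at 81649607, far downstream of the window, whereas GENCODE M21 begins the gene at 81738377.
Scn4b: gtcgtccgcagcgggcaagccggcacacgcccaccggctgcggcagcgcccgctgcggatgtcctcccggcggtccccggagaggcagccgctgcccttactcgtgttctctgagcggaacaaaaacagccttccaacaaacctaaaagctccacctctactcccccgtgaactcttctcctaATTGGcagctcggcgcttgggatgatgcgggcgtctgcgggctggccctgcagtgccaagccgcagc
Cacna2d1: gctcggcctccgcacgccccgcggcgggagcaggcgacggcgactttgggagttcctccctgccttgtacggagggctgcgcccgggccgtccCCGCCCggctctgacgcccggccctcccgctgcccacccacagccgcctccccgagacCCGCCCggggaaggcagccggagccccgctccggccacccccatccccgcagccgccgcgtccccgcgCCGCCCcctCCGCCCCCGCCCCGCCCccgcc
Hcn2: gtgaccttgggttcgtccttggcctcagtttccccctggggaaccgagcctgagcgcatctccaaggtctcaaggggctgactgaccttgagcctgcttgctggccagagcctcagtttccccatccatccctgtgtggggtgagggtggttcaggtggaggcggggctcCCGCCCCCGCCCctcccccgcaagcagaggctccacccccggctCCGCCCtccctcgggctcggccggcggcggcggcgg
Slc8a1: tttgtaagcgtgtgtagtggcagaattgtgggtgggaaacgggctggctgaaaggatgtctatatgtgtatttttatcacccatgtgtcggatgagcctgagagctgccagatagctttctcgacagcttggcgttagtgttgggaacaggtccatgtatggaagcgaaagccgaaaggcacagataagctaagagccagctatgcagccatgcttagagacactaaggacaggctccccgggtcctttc
The sequences did not sort by the direction of change. The GC box occurred 6 times before Cacna2d1, which fell, and 3 times before Hcn2, which rose, and the CCAAT box occurred 1 time, before Scn4b. The Slc8a1 window held neither motif and was 50.4% G and C, against 66.0% for Scn4b, 70.4% for Hcn2 and 82.4% for Cacna2d1. The median over all promoter entries was 52.4%, close to the Slc8a1 window. Over the 10 entries of the 7 members that had any, 5 held a GC box and 2 a CCAAT box, while 0 held the E-box CACGTG, the cyclic AMP element TGACGTCA or the TATA motif TATAAA. Of all 32851 promoter entries, 32.7% held the GC box, 33.8% the CCAAT box, 6.02% CACGTG, 1.55% TGACGTCA and 12.4% TATAAA. A match describes the letters of the window and no more.

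The pore of the L-type channel fell to 47.0% of its control level. Cacna1c (ENSMUSG00000051331, chr6:118587240-119196418, minus strand, GRCm38) is spread over 609 kb, and its longest annotated transcript has 49 exons. Its level was 14.9, 16.9 and 17.1 FPKM in Ctrl hearts and 5.40, 9.69 and 7.96 FPKM in cKO hearts. Every cKO heart lay below every Ctrl heart. The means were 16.3 ± 1.21 and 7.68 ± 2.16 FPKM (SD, n = 3 each). On the log2(FPKM + 1) scale it fell by 1.03 ± 0.181 (SE, 95% interval -1.46 to -0.60, adjusted p = 0.00675). Between 1937 and 8774 reads per heart stood behind these levels, so counting error was small beside the spread between hearts.

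Of the auxiliary subunits, Cacna2d1 fell and Cacnb2 did not pass the test. Cacna2d1 (ENSMUSG00000040118, chr5:15934691-16374511, plus strand), the α2δ1 subunit that carries the channel to the membrane, stood at 12.3, 15.7 and 13.7 FPKM in Ctrl and 8.02, 9.22 and 8.97 FPKM in cKO. The groups did not overlap, and the cKO mean was 63.0% of the control mean (log2 fold change -0.61 ± 0.103 SE, 95% interval -0.85 to -0.36, adjusted p = 0.00600). Cacnb2 (ENSMUSG00000057914, chr2:14603088-14987908, plus strand), the main cardiac β subunit, stood at 3.63, 3.75 and 4.71 FPKM in Ctrl against 3.06, 3.13 and 3.05 FPKM in cKO. The cKO hearts were nearly identical and lay under every Ctrl heart, yet the gene missed the threshold (log2 fold change -0.30 ± 0.0958 SE, 95% interval -0.52 to -0.07, adjusted p = 0.0527). It passed in 3 of 16 alternative analyses, among them voom on the recovered reads (adjusted p = 0.0372, with a range over the alternatives of 0.0372 to 0.696).

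Both auxiliary subunits stood higher relative to the pore in each cKO heart than in any Ctrl heart. Cacna2d1 per Cacna1c was 0.821, 0.924 and 0.8001 in Ctrl and 1.49, 0.951 and 1.13 in cKO. Cacnb2 per Cacna1c was 0.243, 0.221 and 0.275 in Ctrl and 0.567, 0.323 and 0.384 in cKO. Their mean log2 differences were 0.46 and 0.75, and 0.29 and 0.52 without cKO replicate 1, which had the highest value of both ratios. Such ratios do not depend on how the libraries were scaled. With 3 hearts against 3, the two-sided exact permutation test cannot go below p = 0.1, which both reached, and the value adjusted over the 8 ratios tested was 0.2.

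Of the 21 other calcium channel subunit genes listed, 5 were expressed above the minimum, of which 1 was higher, 2 were lower and 2 were not called (median log2 fold change -0.13). The gene that rose was Cacnb1, the β1 subunit best known from skeletal muscle, with 1.32, 1.26 and 1.35 FPKM in Ctrl and 4.88, 3.93 and 3.87 FPKM in cKO (log2 fold change 1.17 ± 0.0933 SE, adjusted p = 0.000728). It exceeded Cacnb2 in each cKO heart and lay below it in each Ctrl heart. This was noticed after the values were seen, and so was the sum of Cacnb1 to Cacnb4, which was 6.19, 5.88 and 7.22 FPKM in Ctrl and 9.22, 8.50 and 7.78 FPKM in cKO. The share of Cacnb2 in that sum was 58.7% to 65.2% in Ctrl and 33.2% to 39.2% in cKO. The genes that fell were Cacna1s, the pore of the skeletal muscle L-type channel (2.08 to 1.11 FPKM, log2 fold change -0.54, adjusted p = 0.00376), and Cacng6, a γ subunit (1.05 to 0.0657 FPKM, log2 fold change -0.93, adjusted p = 0.00415). The skeletal muscle markers summed to 4.48 to 5.69 FPKM in Ctrl and 1.05 to 2.05 FPKM in cKO, most of it Mybpc2. The fast myosin gene Myh1 was at 0 in all 6 hearts.

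**Figure D2:**
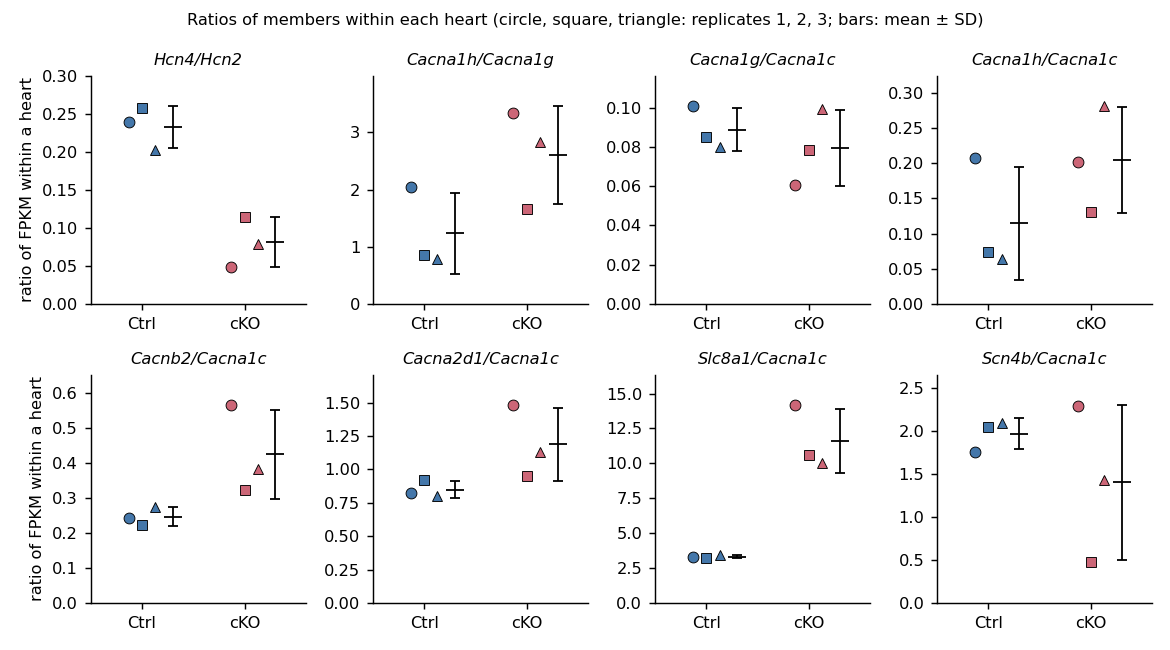
The ratio of the FPKM of a pair of genes within each heart is plotted on linear axes from 0 for 8 pairs, with Ctrl in blue, cKO in red and the mean ± SD beside the points. The ratios Slc8a1/Cacna1c, Hcn4/Hcn2, Cacnb2/Cacna1c and Cacna2d1/Cacna1c separate the groups, and the other 4 overlap.

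Of the T-type pores, Cacna1g fell and Cacna1h was not called. Cacna1g (ENSMUSG00000020866, chr11:94408391-94474198, minus strand), encoding Cav3.1, stood at 1.51, 1.45 and 1.37 FPKM in Ctrl against 0.326, 0.760 and 0.792 FPKM in cKO. The Ctrl hearts were close together and well above the cKO hearts, whose mean was 43.4% of the control mean. The change was -0.60 ± 0.129 SE on the log2(FPKM + 1) scale (adjusted p = 0.0135), a scale that compresses genes near 1 FPKM, and -1.20 by voom on 292 to 336 reads in Ctrl and 56 to 202 reads in cKO. The call was lost with scaling to cardiomyocyte markers (adjusted p = 0.0562) and without Ctrl replicate 1 and cKO replicate 3, where 2 hearts a group remained and the log2 fold change was -0.66 (adjusted p = 0.0615), in a range of 0.00980 to 0.0615 over the alternatives.

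Cacna1h (ENSMUSG00000024112, chr17:25374285-25433783, minus strand), encoding Cav3.2, stood at 3.10, 1.24 and 1.09 FPKM in Ctrl against 1.09, 1.27 and 2.24 FPKM in cKO. The groups overlapped (log2 fold change -0.11 ± 0.285 SE, 95% interval -0.78 to 0.57, adjusted p = 0.8002), and the interval admits a change in either direction. The highest Ctrl heart (replicate 1) and the highest cKO heart (replicate 3) were also the hearts with the highest atrial marker sum of their group, 2054 and 1675 FPKM, and the part of atrial tissue in these values was not tested. Without those hearts, a choice made after seeing the data, the log2 fold change was 0.0089. The ratio Cacna1h/Cacna1g was 2.05, 0.858 and 0.794 in Ctrl and 3.34, 1.67 and 2.83 in cKO. These ranges overlapped through Ctrl replicate 1 (two-sided exact permutation p = 0.2, adjusted p = 0.32), so a shift between the T-type pores was not resolved. The sum of the T-type pores also overlapped, at 2.46 to 4.61 FPKM in Ctrl and 1.43 to 3.04 FPKM in cKO.

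Scn4b showed the largest fall among the 9 genes. It lies at chr9:45138395-45154152 (ENSMUSG00000046480, plus strand) with 5 exons and encodes the β4 subunit that modulates sodium current. It stood at 26.3, 34.7 and 35.8 FPKM in Ctrl against 12.4, 4.65 and 11.4 FPKM in cKO. The highest cKO heart was below the lowest Ctrl heart, and the cKO mean of 9.48 ± 4.21 FPKM was 29.4% of the Ctrl mean of 32.3 ± 5.20 FPKM (SD, n = 3 each). The log2 fold change was -1.75 ± 0.325 SE (95% interval -2.52 to -0.98, adjusted p = 0.00810), and the call held in 16 of 16 alternatives. The lowest value came from cKO replicate 2, the heart without Y-linked transcripts. Without it the log2 fold change was -1.36. That heart also had the highest Cacna1c of its group, so Scn4b per Cacna1c was 0.480 there and 2.29 and 1.44 in the other cKO hearts, against 1.76 to 2.09 in Ctrl, and the groups overlapped in this ratio (two-sided exact permutation p = 0.4).

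Among the 13 other sodium channel subunit genes listed, 4 were expressed above the minimum, of which 0 were higher and 2 were lower (limma, median log2 fold change -0.25). At an unadjusted p under 0.05, 1 of the 4 was higher, and it was called by voom. Scn4a, the pore of the skeletal muscle sodium channel, fell from 8.54, 5.88 and 5.30 FPKM in Ctrl to 1.59, 1.11 and 1.68 FPKM in cKO (log2 fold change -1.61 ± 0.172 SE, adjusted p = 0.00154). It moved in the same direction as Cacna1s, Cacng6 and the skeletal muscle marker Mybpc2, and the part of that marker in the result was not tested. Scn7a, which encodes a sodium-sensing channel, fell from 4.18 to 2.62 FPKM (adjusted p = 0.0102, log2 fold change -0.51).

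Slc8a1 moved opposite to the L-type pore. The exchanger stood at 48.8, 54.8 and 59.0 FPKM in Ctrl against 76.8, 102 and 79.6 FPKM in cKO, and no cKO heart reached down to a Ctrl heart. The cKO mean was 159% of the control mean (86.3 ± 14.1 against 54.2 ± 5.11 FPKM, SD, n = 3 each), with a log2 fold change of 0.65 ± 0.130 SE (95% interval 0.34 to 0.96, adjusted p = 0.0103). The table places the gene (ENSMUSG00000054640) at chr17:81388691-81649607 with a length of 2934 bases, whereas GENCODE M21 gives it 18807 exonic bases. Its level relative to other genes therefore rests on that shorter model, although the length is the same in every heart compared. For the other 8 members the table's length equals the GENCODE exonic length.

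The ratio within hearts combined both changes. Slc8a1 per Cacna1c was 3.27, 3.23 and 3.45 in Ctrl hearts and 14.2, 10.6 and 10.01 in cKO hearts. The Ctrl hearts were nearly identical, and the lowest cKO ratio lay far above them. The mean rose from 3.32 ± 0.115 to 11.6 ± 2.28 (SD, n = 3 each), a log2 difference of 1.79 and a fold of 3.45 on geometric means (two-sided exact permutation p = 0.1, the smallest possible, adjusted p = 0.2). Slc8a1 was already higher and Cacna1c lower in each cKO heart than in any Ctrl heart. The separation of the ratio and its p followed from that and are no further test.

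Of 14 other genes of sarcolemmal sodium and calcium transport, 9 were tested, 1 rose and 1 fell (median log2 fold change -0.04). Atp1b1, the β1 subunit of the sodium pump, which sets the sodium gradient that drives the exchanger, rose from 93.7 to 146 FPKM (adjusted p = 0.00336, log2 fold change 0.63). Its groups did not overlap.

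Of the pacemaker channels, Hcn2 rose and Hcn4 was not called. Hcn2 (ENSMUSG00000020331, chr10:79716634-79736108, plus strand), the main HCN channel of ventricular muscle, stood at 7.52, 10.2 and 7.56 FPKM in Ctrl and 13.1, 13.5 and 13.5 FPKM in cKO. The cKO hearts were tightly grouped above the Ctrl hearts, at 158% of the control mean (log2 fold change 0.62 ± 0.118 SE, 95% interval 0.34 to 0.90, adjusted p = 0.00892). Hcn4 (ENSMUSG00000032338, chr9:58823412-58863175, plus strand), the channel of sinoatrial pacemaker cells, stood at 1.80, 2.63 and 1.53 FPKM in Ctrl and 0.637, 1.55 and 1.07 FPKM in cKO. Its cKO mean was 54.6% of the control mean, but cKO replicate 2 and Ctrl replicate 3 were nearly equal, and the test was not passed (log2 fold change -0.53 ± 0.195 SE, 95% interval -0.99 to -0.06, adjusted p = 0.0791). Without cKO replicate 2 it passed (log2 fold change -0.68, adjusted p = 0.0362, in a range of 0.0287 to 0.221 over the alternatives).

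Within hearts the ratio of the pair separated the groups. Hcn4 per Hcn2 was 0.239, 0.257 and 0.203 in Ctrl and 0.0488, 0.115 and 0.0792 in cKO, so that every Ctrl ratio was above every cKO ratio (mean log2 difference -1.61, two-sided exact permutation p = 0.1, adjusted p = 0.2). Of 7 further HCN channels and partners listed, 3 were tested and 0 were called by limma, with 1 at an unadjusted p under 0.05 and 0 called by voom. Conduction system markers, which exclude Hcn4, summed to 16.4 to 19.3 FPKM in Ctrl and 11.5 to 14.6 FPKM in cKO. Of the 12 markers 4 were tested, of which Tbx3 and Smoc2 were called lower, in 8 and 15 of 16 alternatives (adjusted p up to 0.585 and 0.874). The part of these markers in the Hcn4 and Cacna1g values was not tested.

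**Figure D3:**
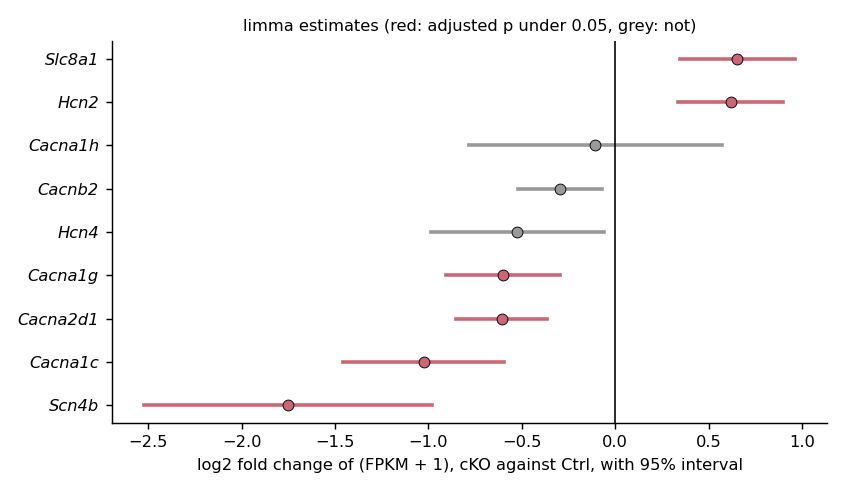
The log2 fold change of (FPKM + 1) in cKO against Ctrl is plotted for each gene with its 95% interval from limma, in red where the adjusted p is under 0.05. Scn4b and Cacna1c lie farthest to the left at -1.75 and -1.03, and Slc8a1 and Hcn2 lie to the right at 0.65 and 0.62.

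These opposite changes altered the order of the levels per length. In Ctrl hearts the order of mean FPKM was Slc8a1, Scn4b, Cacna1c, Cacna2d1, Hcn2, Cacnb2, Hcn4, Cacna1h and Cacna1g. The ranges of Cacna1c and Cacna2d1 overlapped, and so did those of neighbours among Hcn4, Cacna1h and Cacna1g. In cKO hearts Hcn2 stood in the second place after Slc8a1, above Scn4b, Cacna2d1 and Cacna1c, whose neighbouring ranges overlapped each other. Cacnb2 followed, and then Cacna1h, Hcn4 and Cacna1g, whose neighbouring ranges overlapped.

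Transcripts of proteins that regulate these channels were called in both directions, as were those of all genes tested. Of 29 modulators of L-type calcium and sodium channels, 22 were tested, with 5 higher, 4 lower and a median log2 fold change of 0.00. Over all genes tested, 16.3% were called higher and 17.0% lower, and the counts of each list should be read against those shares. Rrad, a small GTPase that binds β subunits and restrains L-type current, stood at 92.2, 70.7 and 57.3 FPKM in Ctrl against 130, 93.0 and 147 FPKM in cKO (log2 fold change 0.74, adjusted p = 0.0394). The groups were separated only narrowly, and the call held in 10 of 16 alternatives (adjusted p from 0.0103 to 0.112). Fgf13, which binds sodium channels, fell from 11.9 to 7.49 FPKM (log2 fold change -0.60). Akap7, which anchors protein kinase A near the L-type channel, fell from 5.17 to 3.51 FPKM (log2 fold change -0.45), a call held in 11 of 16 alternatives.

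Genes listed for the dyad, where transverse tubules face the sarcoplasmic reticulum, and for the calcium pump of that reticulum mostly fell. All 12 were tested, of which 7 were lower and 1 was higher (median log2 fold change -0.58). The largest falls were those of Cmya5, a dyad scaffold (69.5 to 18.1 FPKM, log2 fold change -1.89), and Tcap, a titin cap protein also found at the tubules (2387 to 697 FPKM, log2 fold change -1.77). The calcium pump Atp2a2 fell from 2666 to 1285 FPKM and its regulator Pln from 465 to 173 FPKM (log2 fold changes -1.06 and -1.43).

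Transcription factors described elsewhere as acting on channel genes numbered 17 in the list, of which 15 were tested, 5 fell and 1 rose (median log2 fold change -0.25). Klf15, a factor tied to rhythmic and metabolic gene expression, fell from 33.3 to 15.9 FPKM (adjusted p = 0.0137, log2 fold change -0.999). The mineralocorticoid receptor Nr3c2 fell from 2.97 to 1.43 FPKM (log2 fold change -0.70), and Tbx5, a cardiac T-box factor, from 10.4 to 6.20 FPKM (log2 fold change -0.67). Gata4 rose from 26.0 to 39.0 FPKM (adjusted p = 0.0244, log2 fold change 0.56), a call held in 11 of 16 alternatives.

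**Figure D4:**
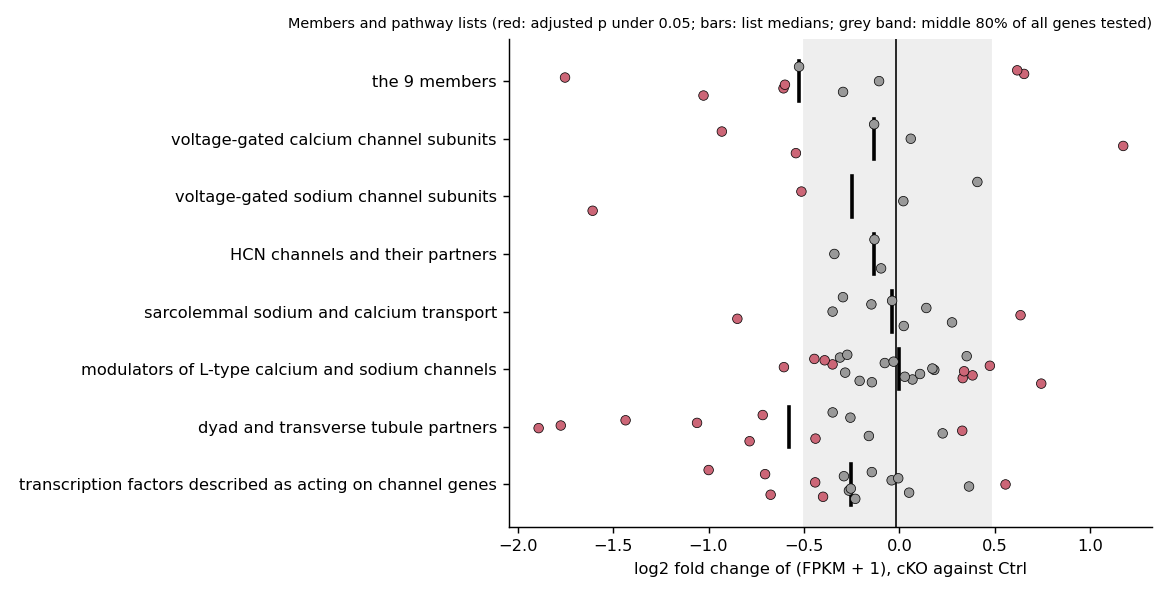
Each point is the log2 fold change of (FPKM + 1) of a tested gene in cKO against Ctrl, by list, in red where the adjusted p is under 0.05, with a bar at each list's median, a line at the median of all genes tested and a grey band over their middle 80%. Among the members and the 7 pathway lists drawn, the dyad list and the 9 members have the lowest medians, at -0.58 and -0.53, and the modulators are centred at 0.00.

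The genes whose levels followed Slc8a1 most closely over the 6 hearts, by the Pearson correlation of log2(FPKM + 1) among 10165 genes, were Zfc3h1 (r = 0.995), Elf4 (r = 0.991) and Gsk3b (r = 0.989). Those closest to Scn4b were Ablim3, Etfbkmt and Rnf170, each at r = 0.999. These values describe 6 hearts in which the groups differ, so a shared group difference contributes to every one of them. A single heart also contributes. In cKO replicate 2, the heart without Y-linked transcripts, Slc8a1, Zfc3h1, Elf4 and Gsk3b were at their highest and Scn4b, Ablim3, Etfbkmt and Rnf170 at their lowest.

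Some calls depended on the scaling or on which hearts were included. Scaling to the cardiomyocyte markers, of which 3 of 10 were themselves called lower in cKO, moved the median of all genes to 0.34. The log2 fold changes under it were -0.59 for Cacna1c, -1.29 for Scn4b, -0.38 for Cacna1g, 1.13 for Slc8a1 and 1.06 for Hcn2. Relative to that shift the log2 fold change was -0.92 for Cacna1c, -1.63 for Scn4b, -0.50 for Cacna2d1, -0.72 for Cacna1g and -0.26 for Cacnb2, and 0.79 for Slc8a1 and 0.72 for Hcn2. Subtracting the median largely undoes a factor applied to a whole heart, so these values are no separate check. In the main analysis, treated alike, they were -1.01 for Cacna1c and -1.74 for Scn4b. Before that subtraction Cacna2d1 was no longer called (log2 fold change -0.16, adjusted p = 0.434, in a range of 0.00322 to 0.434 over the alternatives). Leaving out Ctrl replicate 1 and cKO replicate 3, the hearts with the highest atrial marker sum of their group, left 2 hearts in each group and ended the calls of Slc8a1 (log2 fold change 0.63, adjusted p = 0.0662, in a range of 0.00154 to 0.0662) and Hcn2 (log2 fold change 0.54, adjusted p = 0.0813, in a range of 0.00192 to 0.0813). Cacna1c and Scn4b were called under all 16 alternatives.

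**Figure D5:**
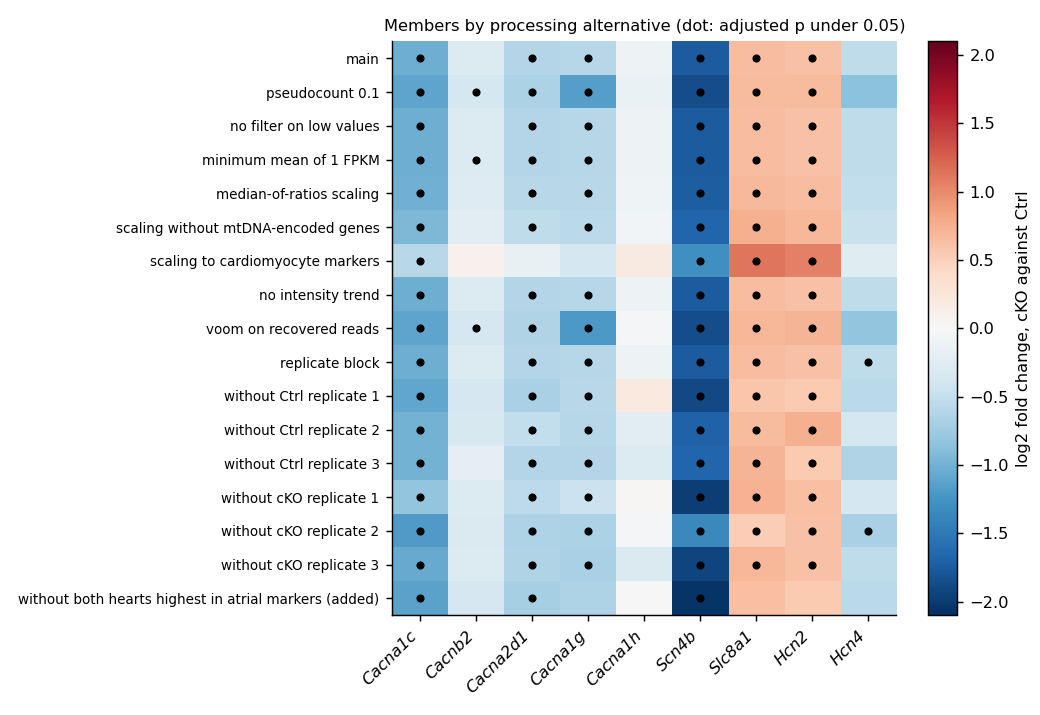
Colour gives the log2 fold change in cKO against Ctrl of each gene (columns) under the main analysis and 16 alternatives (rows), from blue (lower) to red (higher), and a dot marks an adjusted p under 0.05. Cacna1c and Scn4b keep a dot in every row, and Cacnb2 and Cacna1h change colour under the scaling to cardiomyocyte markers.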

How the data were processed

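Polyadenylated RNA from 3 Ctrl and 3 cKO hearts had been sequenced in paired-end reads. Per the labels' processing notes the authors used HISAT2 2.0.5, featureCounts 1.5.0-p3 and DESeq2 1.16.1. The deposited values are FPKM per gene, 1 column per heart. The notes list the build mm9, but of 54409 gene IDs shared with GENCODE M21 (GRCm38) 53499 had the same start and end, so GRCm38 was used. FPKM times the table's gene length gave whole reads (within 0.05 of a whole number) for 100% of values. The library size behind the FPKM was 0.913 to 0.980 times the total of these reads in Ctrl hearts. In each cKO heart it was 1.06 times the total, so it differed by group relative to the total. The median-of-ratios factors of the FPKM were 0.986 to 1.01, so that alternative stayed close to the main analysis. PCR duplicates could not be told apart.

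The test was limma 3.58.1 (R 4.3.3, intensity trend) on log2(FPKM + 1), which understates changes of low genes, over the 12944 genes whose mean reached 0.5 FPKM. Values within groups are mean ± SD. Ratios of members were tested by two-sided exact permutation. The study's methods call the controls littermates and give the mice's age as 12 weeks, which the labels give as the time since tamoxifen at 8 weeks of age, and the labels were followed. Which hearts shared a litter is not given in the sources used here, so p-values measure the spread between these samples. Alternatives were a pseudocount of 0.1, no minimum or a minimum of 1 FPKM, median-of-ratios scaling, scaling without mitochondrially encoded genes, scaling to cardiomyocyte markers, no trend, voom on the recovered reads, a replicate block and leaving out each heart; leaving out Ctrl replicate 1 and cKO replicate 3 together was chosen after seeing the data. On simulated data 86.3% of changed genes were recovered at this group size, among 12957 to 12977 genes. That share is not split by size of change. Recovery at the size of change seen for Cacnb2, Cacna1h and Hcn4 was not tested.

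The members, the 7 pathway lists (113 genes) and the 10 marker lists were chosen with earlier results of these data known. Named from each pathway list were up to 4 called genes with the largest change and a mean of at least 1 FPKM in a group, and for Slc8a1 and Scn4b the 3 genes with the highest Pearson's r over the 6 hearts. Some genes that this rule names are not reported here. Promoters came from RefSeq (GRCm38.p6), where 7 of 9 members had an entry. Protein sequences were not used here.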

Additional observations from a re-analysis of the deposited data

How the results depend on the processing

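Over 144 combinations of a member and an alternative, 129 kept the direction and side of the threshold, 5 gained a call, 5 lost a call and 5 changed sign. The changes of sign were those of Cacnb2 (0.084) and Cacna1h (0.18) with scaling to cardiomyocyte markers, and of Cacna1h without Ctrl replicate 1 (0.20), without cKO replicate 1 (0.019) and without Ctrl replicate 1 and cKO replicate 3 (0.0089), with a range for Cacna1h of -0.30 to 0.20 over leaving out each heart. With cardiomyocyte scaling 2 members were lower, 4651 genes were higher and 354 lower among all genes tested, and 15 listed pathway genes were higher and 6 lower, against 2110 and 2205 genes and 9 and 21 pathway genes in the main analysis. Scaling without mitochondrially encoded genes gave 2647 higher and 1623 lower genes. Without Ctrl replicate 1 and cKO replicate 3, 0 members were higher, with 994 higher and 1024 lower genes and 3 higher pathway genes. Without a minimum level 5 pathway genes were higher. Leaving out each heart in turn gave 1400 to 1993 higher and 1434 to 2006 lower genes, with the fewest higher genes without Ctrl replicate 3 and the fewest lower genes without Ctrl replicate 2, 2 higher and 4 to 5 lower members, and 3 to 9 higher and 17 to 23 lower pathway genes. Higher pathway genes numbered 4, 5 and 3 without Ctrl replicates 1, 2 and 3 and 5 without cKO replicate 1, and 1450 genes were lower without Ctrl replicate 3. The cause of these shifts was not tested. Leaving out hearts also leaves fewer samples in the fit.

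Of the hearts that share a replicate number, those numbered 2 deviated together (r = 0.17) and those numbered 1 and 3 did not (r = -0.055 and -0.015), and Ctrl replicate 1 correlated best with cKO replicate 3 (r = 0.093), so the numbers were not taken as pairs. With a replicate block 1874 genes were higher and 1982 lower, with 2 members higher and 5 lower, the added member being Hcn4 (log2 fold change -0.53, adjusted p = 0.0287), and 9 pathway genes higher and 24 lower. Mrps5 stayed at -1.65 with the block. Depth limits Cacna1g and Hcn4 most, with 56 and 66 reads in the shallowest heart.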
